A study of Mus musculus with 18 samples.

Results

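The cytosolic ribosomal protein genes are the genes for the proteins of the ribosome outside the mitochondria. They were taken by symbol, as protein-coding genes named Rpl or Rps and a number, with an a or x where one follows, or Rplp and a number, or Rpsa. The rule used no measured value and found 76 genes among the 55335 identifiers counted, 46 of the large and 30 of the small subunit. Of these, 75 passed the filter on low counts and were tested, and Rpl24 did not pass it. RNA was sequenced from O9-1 cells, a line of neural crest cells from the heads of mouse embryos, labelled wild type, cultured for osteoblast differentiation. The 18 libraries were 3 replicates of each of 6 groups. At day 2.5 (d2.5) and at day 5 (d5), cells had received control siRNA and vehicle (Ctrl+vehicle, siCtrl no FGF2 in the labels), control siRNA and FGF2 (Ctrl+FGF2), or siRNA pools against Yap and Taz and FGF2 (Y/T dKD+FGF2, siY/T with FGF2 in the labels). The knockdown was made only in the presence of FGF2, and the labels name the day as the batch, so day and batch cannot be told apart.

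A ribosome is built in the nucleolus from ribosomal RNA and one copy of most ribosomal proteins, so the cell needs these proteins in similar numbers. Their mRNAs are among the most abundant of a growing cell, and most begin with a run of pyrimidines, the 5′ terminal oligopyrimidine (TOP) tract. Through this tract the mTOR pathway, which growth factors feed, controls their translation and stability, while Myc raises the transcription of ribosome genes. FGF2 is a growth factor that signals through receptor tyrosine kinases, and Yap and Taz (gene Wwtr1) are transcriptional co-activators.

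The pyrimidine tract of TOP mRNAs can be looked for at the annotated starts. RefSeq's promoter table (GRCm38.p6) held 56 of the 76 members. A C followed by at least 4 further C or T at the annotated start, on the gene's strand, stood in 12 of the 56 members (21.4%), against 2.51% of all 32851 promoters. Such a run began within 5 bases of the start in 26 members (46.4%), against 18.3% of all promoters. The motif CCGGAAG, on either strand of the 300 bases around the start, was in 22 members (39.3%) and in 8.86% of all promoters. CACGTG was in 5 members (8.93%) and in 7.15% of all promoters, and TATAAA was likewise in 5 members (8.93%) and in 13.6% of all promoters. These are matches of letters to annotated starts, which can differ from the start used in these cells. Shown here are 30 bases, 10 before and 20 from the annotated start on. The run of pyrimidines from the start on is in capitals, and pyrimidines just before the start are in lower case. The first 3 lines are members that were higher with FGF2 at d2.5 and lower at d5, the next 2 were higher on both days, the next 2 were called at d5 only, and Rpl5 and Rplp0 are members of interest below that hold no such run at the annotated start.
Rps6 (chr4:86857348-86857377, minus strand): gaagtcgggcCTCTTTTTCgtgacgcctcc
Rps15a (chr7:118116128-118116157, minus strand): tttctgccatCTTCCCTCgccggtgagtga
Rpl35 (chr2:39005112-39005141, minus strand): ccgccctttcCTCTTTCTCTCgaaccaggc
Rpl14 (chr9:120571507-120571536, plus strand): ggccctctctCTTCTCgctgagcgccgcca
Rplp2 (chr7:141447641-141447670, plus strand): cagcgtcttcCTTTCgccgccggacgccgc
Rps27 (chr3:90213629-90213658, minus strand): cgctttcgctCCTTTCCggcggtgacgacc
Rps21 (chr2:180257369-180257398, plus strand): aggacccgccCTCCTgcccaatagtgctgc
Rpl5 (chr5:107900518-107900547, plus strand): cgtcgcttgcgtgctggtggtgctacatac
Rplp0 (chr5:115559457-115559486, plus strand): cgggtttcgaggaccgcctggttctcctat
With FGF2 at d2.5, 8 of the 12 members with a run at the start were called higher (median log2 fold change 0.21), as were 39 of the 43 tested members of the table without one (median 0.20). Of all 13677 genes tested, 33.5% were called higher. At d5 the same comparison had a median of 0.01 in the former and -0.03 in the latter.

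Gene counts per library lay between 10377151 and 14698525. Reads that mapped to several places were not counted and made up 2.42% to 3.20% of the reads of a library, which lowers members with near-identical pseudogenes. Expression is given in CPM, a gene's counts relative to the size of its library, scaled by the trimmed mean of M-values (TMM) among the 9 libraries of a day, so CPM are compared within a day only. A gene is called at an adjusted p under 0.05 of edgeR's quasi-likelihood test, and errors of log2 fold changes are standard errors. Yap1, targeted by the siRNA, was at 140.3, 134 and 136 CPM in Ctrl+FGF2 and at 68.6, 69.6 and 73.7 CPM in Y/T dKD+FGF2 at d2.5. At d5 it was at 149.6, 139 and 143 CPM in Ctrl+FGF2 and at 69.9, 63.0 and 65.8 CPM in Y/T dKD+FGF2, and in the Ctrl+vehicle libraries it was between 129 and 164 CPM. Wwtr1 was at 236, 233 and 238 CPM in Ctrl+FGF2 and at 149, 138 and 143 CPM in Y/T dKD+FGF2 at d2.5, where Ctrl+vehicle had 152, 149 and 149 CPM. At d5 Wwtr1 was at 210.4, 219 and 221 CPM in Ctrl+vehicle, at 201, 206 and 203 CPM in Ctrl+FGF2 and at 115, 119.9 and 116 CPM in Y/T dKD+FGF2. Both targets were thus lower with the siRNA than with control siRNA under FGF2 in every library, while Wwtr1 at d2.5 overlapped Ctrl+vehicle. Of 10 neural crest markers, Sox10 and Foxd3 were at 0 in all libraries, whereas Twist1, Snai2, Tfap2a and Ets1 were between 36.0 and 90.5 CPM. Snai1 was at 20.6 to 79.3 CPM, Msx1 at 6.65 to 20.9 CPM, Pax3 at 2.17 to 16.2 CPM and Msx2 at 0.585 to 9.24 CPM. The summed level of 9 mesenchyme and osteoblast markers was 34819 to 35064 CPM in Ctrl+vehicle, 10087 to 10336 CPM in Ctrl+FGF2 and 10110 to 10386 CPM in Y/T dKD+FGF2 at d2.5. At d5 it was 66714 to 69592 CPM in Ctrl+vehicle, 37471 to 41685 CPM in Ctrl+FGF2 and 48332 to 50401 CPM in Y/T dKD+FGF2. Most of this sum was Col1a1 (2063 to 30716 CPM over all libraries) and Col1a2 (6155 to 36298 CPM). Prrx1 was at 1365 to 2111 CPM, and the other markers of this list at no more than 552 CPM. The sum moved opposite to the share of the ribosomal protein genes with FGF2, which says little about the less abundant markers. The part of these abundant mRNAs in the results was not tested. The markers of endothelial, blood, epithelial and muscle cells each summed to at most 4.34 CPM in every library.

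Together the 76 genes made up 4.36% to 4.55% of the gene counts in Ctrl+vehicle at d2.5, 5.13% to 5.22% in Ctrl+FGF2 and 5.14% to 5.25% in Y/T dKD+FGF2. At d5 the shares were 2.48% to 2.60% in Ctrl+vehicle, 2.67% to 2.73% in Ctrl+FGF2 and 2.67% to 2.73% in Y/T dKD+FGF2. On both days the libraries with FGF2 lay above all Ctrl+vehicle libraries, and those with and without the knockdown overlapped. A share of the counts is scaled by total gene counts alone. With that scaling at d5, the median log2 fold change with FGF2 was 0.08 for the members and 0.12 for all genes. The higher share at d5 is thus not particular to the members. At d2.5 these medians were 0.24 and 0.04. The large subunit held 2.65% to 2.76% of the counts in Ctrl+vehicle and 3.10% to 3.15% in Ctrl+FGF2 at d2.5, and the small subunit 1.70% to 1.79% and 2.03% to 2.07%. All d5 libraries had lower shares than all d2.5 libraries, a difference that cannot be told apart from the batch. In RNA of whole cultures, fewer cells of a type and less RNA per cell cannot be told apart.

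**Figure D1:**
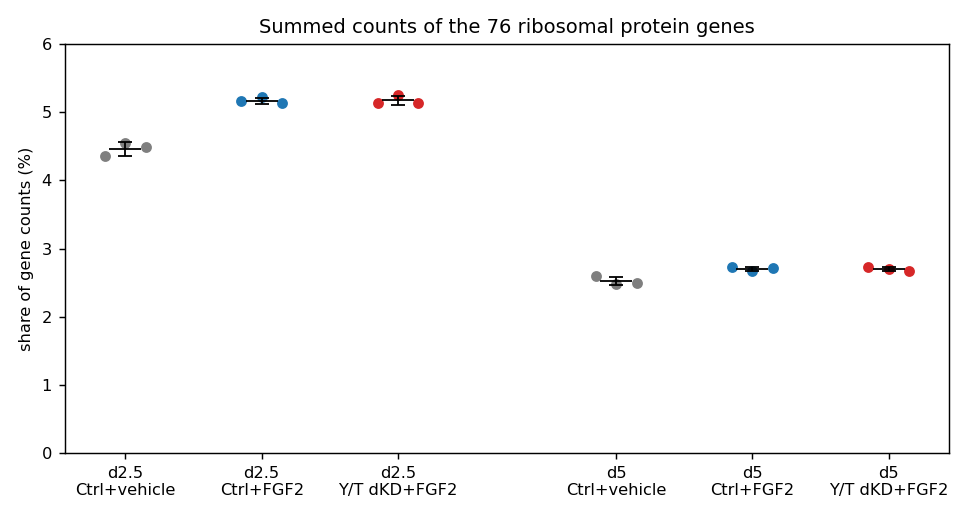
Share of a library's gene counts, in percent, held by the 76 ribosomal protein genes, for each of the 18 libraries (points) by group, with the mean and SD of 3 replicates (black). Libraries with FGF2 sit above Ctrl+vehicle on each day, at 5.13% to 5.25% against 4.36% to 4.55% at d2.5 and at 2.67% to 2.73% against 2.48% to 2.60% at d5. With scaling by total gene counts at d5, the median log2 fold change with FGF2 was 0.08 for the members and 0.12 for all genes.

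Per length, the most abundant members were Rpl10, at a mean of 1443 RPKM, which is CPM per kilobase of transcript averaged over the 6 groups with libraries scaled within each day, Rpl23a (1386 RPKM), Rps12 (1352 RPKM), Rpl41 (1272 RPKM) and Rps4x (1211 RPKM). Rpl10 is among the last proteins to join the large subunit, and Rpl41 is the shortest ribosomal protein. At the other end were Rpl13a at 26.8 RPKM, Rps10 at 3.54 RPKM and Rpl24 at 0.400 RPKM. These 3 are the members whose transcripts overlap another gene of the same strand over most of their bases, Rps10 over 91.6% (RPS10-NUDT3), Rpl24 over 71.5% (Gm28037) and Rpl13a over 59.3% (Gm45713 and Mir5121). RPS10-NUDT3, Gm28037 and Gm45713 were at 0 in all libraries. Rpl24 had 1 to 9 counts in a library, and Rps10 had 11 to 40. Their values say little about their mRNA, and the results below were also taken without them. Rps20, at 109 RPKM, was next, and its annotated transcript of 3706 bases is the longest of all members.

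With FGF2 at d2.5, nearly all ribosomal protein mRNAs rose by a small amount. Of the 75 members, 66 were called higher and 1 lower, where 33.5% of the 13677 genes tested were called higher and 34.1% lower. The median log2 fold change was 0.20, a rise of 15.2%, and the values ran from -0.09 to 0.35. The median of all genes was 0.00. In 67 members all 3 Ctrl+FGF2 libraries were above all Ctrl+vehicle libraries, and in 1 member all were below. Among all genes tested 70.5% did not overlap in one direction or the other. Both subunits took part, with 40 of 45 large subunit genes (median 0.20) and 26 of 30 small subunit genes (median 0.21) called higher.

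The largest rises called were in the large subunit. Rpl36 was at 180.0, 193 and 184 CPM in Ctrl+vehicle and at 237, 239.6 and 235 CPM in Ctrl+FGF2 (log2 fold change 0.35 ± 0.04, adjusted p = 1.14e-08). Rpl8, which lies close to the catalytic centre of the ribosome, was at 891, 967 and 929.6 CPM and at 1164, 1186 and 1182 CPM (0.34 ± 0.03, adjusted p = 3.87e-11). The libraries of both genes were well apart between the groups. Rpl35a was at 246, 257 and 255 CPM in Ctrl+vehicle and at 318, 330.0 and 313 CPM in Ctrl+FGF2 (0.34 ± 0.03, adjusted p = 1.49e-10). Rpl18 was at 328, 339 and 323 CPM and at 413, 411 and 404 CPM (0.31 ± 0.03, adjusted p = 1.13e-09). In each of the 4, every Ctrl+FGF2 library was higher than every Ctrl+vehicle library. Rpl5, which binds 5S ribosomal RNA and can hold back the p53 ligase Mdm2, followed with 1006, 1049.8 and 1046 CPM in Ctrl+vehicle and 1258, 1307 and 1273 CPM in Ctrl+FGF2 (0.31 ± 0.03, adjusted p = 7.47e-11).

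The member called lower was Rpl10, at 1379, 1458 and 1419 CPM in Ctrl+vehicle and 1350.1, 1322 and 1338 CPM in Ctrl+FGF2 (-0.09 ± 0.03, adjusted p = 0.00932). The groups did not overlap, but the call was lost without Ctrl+vehicle replicate 2 (log2 fold change -0.07, adjusted p = 0.0574) and when libraries were scaled by their total gene counts alone (-0.05, adjusted p = 0.106). The members not called were Rplp0, Rplp1, Rpl22, Rpl38, Rps10, Rps21, Rps27 and Rps28. The acidic proteins Rplp0, Rplp1 and Rplp2 form the stalk to which elongation factors bind. Rplp0, by CPM the most abundant member, was at 1960.3, 2022 and 1949.7 CPM in Ctrl+vehicle and at 1983, 2007 and 1994 CPM in Ctrl+FGF2 (0.01 ± 0.03, adjusted p = 0.72). Rplp1 was at 569, 611 and 616 CPM and 623, 611 and 608 CPM (0.04 ± 0.04, adjusted p = 0.416), and the groups of both overlapped. Rplp2 was called higher (0.14 ± 0.04, adjusted p = 0.00234). Rpsa, a small subunit protein also known as the laminin receptor, was at 1582, 1638 and 1604 CPM in Ctrl+vehicle and 1730.4, 1771 and 1777 CPM in Ctrl+FGF2 (0.13 ± 0.03, adjusted p = 1.22e-04). Rps27a, made as a fusion with ubiquitin, was at 581, 625 and 615 CPM and 735, 738 and 716 CPM (0.27 ± 0.03, adjusted p = 6.73e-09).

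At d5 the same comparison called 19 of the 75 members higher (25.3%) and 14 lower (18.7%) with FGF2. The shares of the 13304 genes tested were close to these, at 23.5% and 23.7%, so the counts are no result particular to the ribosomal protein genes. The median log2 fold change was -0.02, within a range of -0.22 to 0.31, and this median turned to 0.01 with upper-quartile scaling and to 0.08 with scaling by total gene counts. Under the latter, which moved the median of all genes from 0.02 to 0.12, 37 members were called higher and 0 lower, and of all genes called 69.7% were higher in place of 49.8%. The number called lower was 9 without Ctrl+vehicle replicate 1, where the median was 0.01, and 8 when Ctrl+FGF2 replicate 3 was dropped. DESeq2 called 15 members higher and 13 lower.

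The small subunit genes Rps28, Rps29 and Rps9 rose most at d5. Rps28 was at 168, 169 and 165 CPM in Ctrl+vehicle and 200.3, 212 and 207 CPM in Ctrl+FGF2 (log2 fold change 0.31 ± 0.04, adjusted p = 6.35e-06). Rps29 was at 133, 135 and 138 CPM and 164, 169 and 168 CPM (0.30 ± 0.04, adjusted p = 1.76e-05). The groups of both were well apart. Rps9 was at 381, 378 and 386 CPM in Ctrl+vehicle and 453, 442 and 456 CPM in Ctrl+FGF2 (0.24 ± 0.03, adjusted p = 1.02e-05). All 3 genes of the stalk were called higher at d5, with groups that did not overlap in Rplp0 and Rplp1 but did in Rplp2. Rplp0 was at 987, 969 and 969.6 CPM in Ctrl+vehicle and 1104, 1038 and 1073 CPM in Ctrl+FGF2 (0.14 ± 0.03, adjusted p = 0.00256), Rplp1 at 247, 247 and 242 CPM and 284, 271 and 284 CPM (0.19 ± 0.04, adjusted p = 7.45e-04), and Rplp2 had a log2 fold change of 0.11 ± 0.04, adjusted p = 0.0384.

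The largest falls called at d5 were in the large subunit. Rpl5 was at 641, 619.8 and 624 CPM in Ctrl+vehicle and 549, 560.1 and 562 CPM in Ctrl+FGF2 (-0.17 ± 0.03, adjusted p = 2.36e-04), a call lost when a smooth trend with GC content was taken out of each library (-0.06, adjusted p = 0.125). Rpl21 was at 429, 402 and 408 CPM and 361, 367 and 375 CPM (-0.17 ± 0.04, adjusted p = 7.20e-04). No replicate of either crossed into the other group. Rpl29 was at 125, 107 and 110.2 CPM in Ctrl+vehicle and 105, 99.6 and 100.2 CPM in Ctrl+FGF2 (-0.17 ± 0.06, adjusted p = 0.0314), with 1 Ctrl+vehicle library well above the others. Its call was lost without Ctrl+vehicle replicate 1 (-0.10, adjusted p = 0.157), Ctrl+FGF2 replicate 2 (adjusted p = 0.0751) or Ctrl+FGF2 replicate 3 (adjusted p = 0.0921), and with upper-quartile scaling (adjusted p = 0.0661). Rpl12 was at 463, 421 and 437 CPM and 387, 392 and 405 CPM (-0.16 ± 0.04, adjusted p = 0.003). None of these 4 was called when libraries were scaled by total gene counts, where their log2 fold changes were -0.05 to -0.07. Rps27a was at 357, 353 and 358 CPM in Ctrl+vehicle and 314, 319 and 329 CPM in Ctrl+FGF2 (-0.15 ± 0.03, adjusted p = 0.00136), and Rpsa was not called (-0.03 ± 0.04, adjusted p = 0.538).

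**Figure D2:**
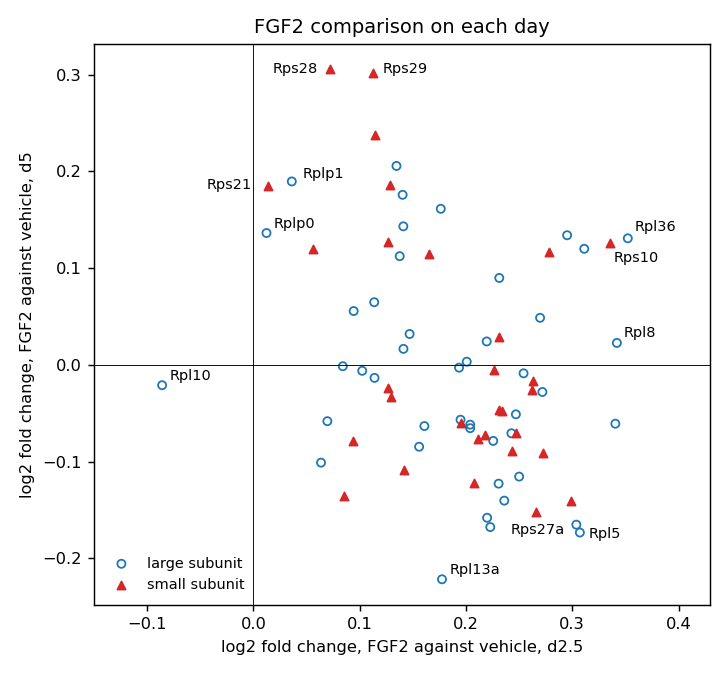
Log2 fold change of Ctrl+FGF2 against Ctrl+vehicle at d2.5 (horizontal axis) and at d5 (vertical axis) for the 75 members tested, large subunit as open circles and small subunit as filled triangles. All but Rpl10 lie right of 0 at d2.5, whereas at d5, with TMM scaling, 30 lie above 0, and the median at d5 turns from -0.02 to 0.08 with scaling by total gene counts.

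The FGF2 effect differed between the days for most of the family. The difference of the log2 fold changes, d5 minus d2.5, was taken from a joint fit of both days (18 libraries), and 55 members were called lower and 4 higher, where 29.1% and 31.8% of 14198 genes were. The median difference was -0.24, and it stayed between -0.15 and -0.27 under every scaling tried, with the median of all genes at 0.03 in the fit reported and at 0.13 with scaling by total gene counts. The smallest adjusted p belonged to Rpl5 (difference -0.50 ± 0.04, adjusted p = 1.50e-11), Rps27a (-0.44 ± 0.05, adjusted p = 1.12e-09) and Rpl35a (-0.43 ± 0.05, adjusted p = 5.68e-09). The 4 called higher were Rps28, Rps29, Rps9 and Rplp0. Their number was 3 to 5 when Ctrl+vehicle 1, Ctrl+FGF2 2 or Y/T dKD+FGF2 2 or 3 of d2.5, or Ctrl+vehicle 2 or Ctrl+FGF2 1 or 2 of d5, was left out, and 2 when any of the other 11 libraries was. The number called higher also depended on the processing. It was 2 with DESeq2, 10 with scaling by the upper quartile or by total gene counts, and 0 when a smooth trend with GC content was taken out. Read day by day, 14 members were called higher with FGF2 on both days. A further 13 were called higher at d2.5 and lower at d5: Rpl4, Rpl5, Rpl12, Rpl21, Rpl23, Rpl29, Rpl30, Rpl35, Rps6, Rps12, Rps15a, Rps20 and Rps27a. Rps6 is the substrate of S6 kinase downstream of mTOR. With scaling by total gene counts no member was called lower at d5, so the fall of these 13 at d5 depends on the scaling. Of all genes, 33.5% were called higher at d2.5, and at d5 23.5% were called higher and 23.7% lower. The share of all genes with each pair of calls was not taken, so nothing particular to the members is read from the 14 and the 13.

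Some members outside the naming rule were chosen for their known roles after their values were seen, so they are examples and do not stand for the family. Rps6 was at 589, 606 and 603 CPM in Ctrl+vehicle and 723, 757 and 732 CPM in Ctrl+FGF2 at d2.5 (0.30 ± 0.03, adjusted p = 1.92e-10). At d5 it was at 377, 332 and 323 CPM and 319, 305 and 311 CPM (-0.14 ± 0.05, adjusted p = 0.0211), with 1 Ctrl+vehicle library well above the others. The order of the groups was thus opposite on the 2 days under TMM scaling, with no overlap on either day. Rpl11, which joins Rpl5 in the 5S particle, was called higher at d2.5 (0.15 ± 0.03, adjusted p = 1.47e-04) and not at d5 (0.03 ± 0.04, adjusted p = 0.576). Rps19, the gene most often mutated in Diamond-Blackfan anaemia, was called higher on both days (0.17 ± 0.04, adjusted p = 4.18e-04 at d2.5 and 0.12 ± 0.04, adjusted p = 0.0253 at d5). Rpl38, known in the mouse for its part in patterning the skeleton, was called on neither day (0.08 ± 0.04, adjusted p = 0.0811 and -0.00 ± 0.04, adjusted p = 0.983). Rpl22 was called at d5 only, lower with FGF2 (-0.10 ± 0.04, adjusted p = 0.0253).

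**Figure D3:**
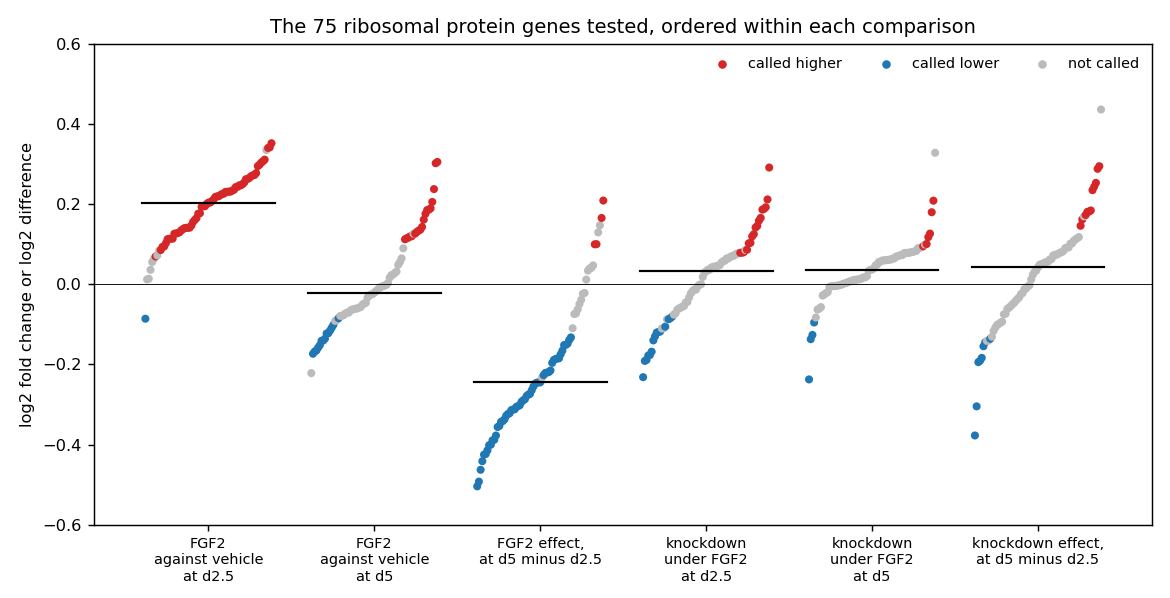
Log2 fold change (or difference of log2 fold changes between days, d5 minus d2.5) of the 75 members tested, sorted within each of 6 comparisons, with the median as a black line and calls at an adjusted p under 0.05 in colour. FGF2 at d2.5 moved 66 members higher, and the difference between days had 55 lower, while the knockdown comparisons have members on both sides and medians of 0.03 to 0.04. The median of FGF2 at d5 turns from -0.02 to 0.08 with scaling by total gene counts.

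With the Yap and Taz siRNA under FGF2 at d2.5, the members moved in both directions. Of the 75, 17 were called higher and 15 lower in Y/T dKD+FGF2 than in Ctrl+FGF2, where 10.8% and 13.6% of all genes were. The median log2 fold change was 0.03 and the range -0.23 to 0.29. By replicates, 26 members were higher in every knockdown library and 19 lower in every one, whereas 39.4% of all genes tested did not overlap. The counts rested on single libraries to some degree. When Ctrl+FGF2 replicate 3 was left out, 9 members were called higher, and 11 were when Y/T dKD+FGF2 replicate 1 was. When Y/T dKD+FGF2 replicate 3 was left out, 11 were called higher and 9 lower.

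Rpl39, which lines the exit tunnel for the new protein, was at 308, 299 and 296 CPM in Ctrl+FGF2 and 353, 378 and 375 CPM in Y/T dKD+FGF2 (log2 fold change 0.29 ± 0.03, adjusted p = 2.10e-07). Rps27a was at 735, 738 and 716 CPM and 828, 855 and 852 CPM (0.21 ± 0.03, adjusted p = 6.00e-06). Both groups were apart in every library. Rps15a was at 386, 382 and 371 CPM in Ctrl+FGF2 and 433, 436 and 432 CPM in Y/T dKD+FGF2 (0.19 ± 0.03, adjusted p = 9.68e-05), and Rpl9 at 757, 729 and 740.3 CPM and 836, 858 and 843 CPM (0.19 ± 0.03, adjusted p = 6.64e-05). Of the members that fell, Rpl13 was at 804, 797 and 809.7 CPM in Ctrl+FGF2 and 684, 712 and 657 CPM in Y/T dKD+FGF2 (-0.23 ± 0.03, adjusted p = 1.83e-06). Rplp1 was at 623, 611 and 608 CPM and 527, 581 and 505 CPM (-0.19 ± 0.04, adjusted p = 4.56e-04), with the stalk partner Rplp0 also called lower (-0.14 ± 0.03, adjusted p = 5.74e-04) and Rplp2 not called (-0.05 ± 0.04, adjusted p = 0.432). Rps29 was at 257, 257 and 253 CPM in Ctrl+FGF2 and 219, 233 and 221 CPM in Y/T dKD+FGF2 (-0.19 ± 0.03, adjusted p = 1.29e-04), and Rps28 at 271, 279 and 267 CPM and 232, 250.1 and 241 CPM (-0.18 ± 0.04, adjusted p = 3.99e-04). Rpsa fell as well, with 1617, 1624 and 1583 CPM in Y/T dKD+FGF2 (-0.13 ± 0.03, adjusted p = 7.72e-04).

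The direction of the d2.5 knockdown changes went with base composition. Members called higher had a median GC content of 48.7% in their transcripts, and members called lower 56.3%, and among all genes tested the medians were 44.9% and 56.4%. Across the 75 members the log2 fold change had a Pearson r of -0.59 with GC content, and across 13673 genes an r of -0.37, a description over genes that share libraries. When a smooth trend with GC content was taken out of each library, an alternative chosen after seeing the data, 5 members were called lower in place of 15 and 23 higher in place of 17, and neither Rpl13 (-0.08, adjusted p = 0.0695) nor Rplp1 (-0.03, adjusted p = 0.675) was called. Over all genes the calls fell in both directions with the trend taken out, from 1483 to 814 higher and from 1862 to 864 lower. At d5 the FGF2 comparison showed the opposite sign, with a median of 54.6% in members called higher, 48.3% in those called lower and an r of 0.43 over the members and 0.24 over all genes. With the trend taken out, 10 members were called higher and 22 lower at d5, and over all genes 2673 were called higher in place of 3125 and 3021 lower in place of 3153. The rise with FGF2 at d2.5 had an r of 0.10, and 66 members were called higher with the trend taken out as well. Why base composition went with these changes was not tested.

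**Figure D4:**
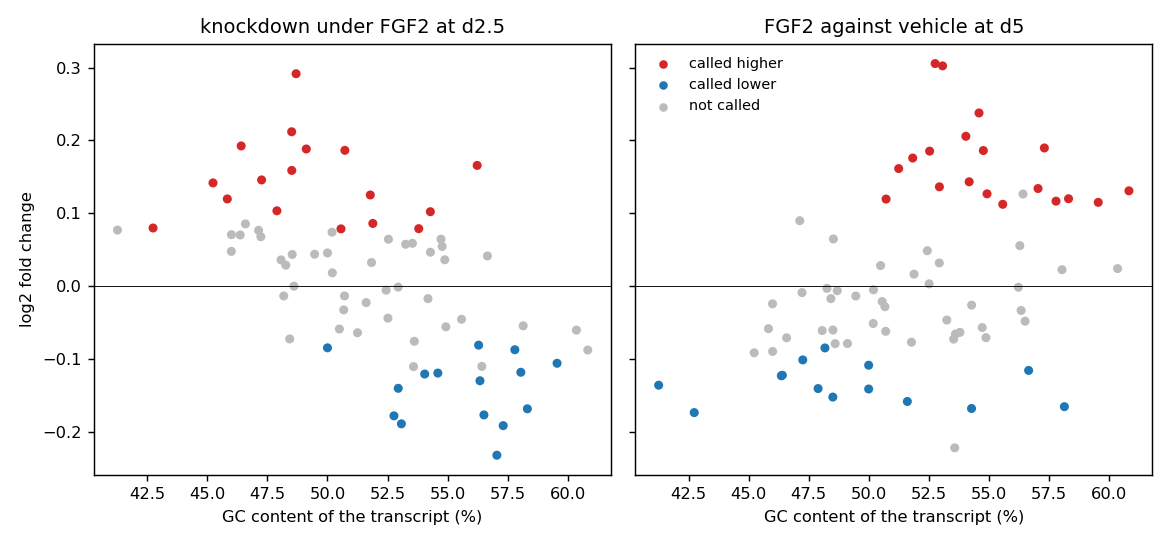
Log2 fold change against the GC content of the transcript (percent) for the 75 members, in the knockdown comparison under FGF2 at d2.5 (left) and in FGF2 against vehicle at d5 (right), with calls in colour. Members called higher lie at lower GC content on the left (median 48.7% against 56.3%) and at higher GC content on the right (54.6% against 48.3%), where with scaling by total gene counts no member is called lower.

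At d5 few members differed with the knockdown. Of the 75, 6 were called higher and 4 lower in Y/T dKD+FGF2 than in Ctrl+FGF2, below the shares of all genes, 15.6% and 16.1%. The median log2 fold change was 0.04. Rpl30 was at 254, 263 and 257 CPM in Ctrl+FGF2 and 306, 293 and 296 CPM in Y/T dKD+FGF2 (log2 fold change 0.21 ± 0.04, adjusted p = 1.92e-04). Rpl8 was at 483, 481 and 499 CPM and 564, 561 and 532 CPM (0.18 ± 0.04, adjusted p = 7.02e-04), and neither gene's groups overlapped. Rpsa was at 573, 528 and 549 CPM in Ctrl+FGF2 and 600.4, 601 and 600.2 CPM in Y/T dKD+FGF2 (0.13 ± 0.04, adjusted p = 0.0261), and Rpl19 at 211, 225 and 223 CPM and 249, 232 and 234 CPM (0.12 ± 0.04, adjusted p = 0.043). Rpl5 and Rpl27a completed the 6. Rps21 was at 198, 205 and 204 CPM in Ctrl+FGF2 and 178, 175 and 161 CPM in Y/T dKD+FGF2 (-0.24 ± 0.04, adjusted p = 2.20e-04), Rps29 at 164, 169 and 168 CPM and 152, 159.9 and 142 CPM (-0.14 ± 0.04, adjusted p = 0.0207). Rps14 was at 395, 423 and 403 CPM in Ctrl+FGF2 and 362, 382 and 375 CPM in Y/T dKD+FGF2 (-0.13 ± 0.04, adjusted p = 0.0209), and Rpl7a at 485, 474 and 482 CPM and 449, 457 and 442 CPM (-0.10 ± 0.03, adjusted p = 0.0346). The stalk genes did not pass the test, with log2 fold changes of -0.02, -0.00 and 0.02. Of the named calls, that of Rpl19 was lost under 9 of the alternative settings, of Rpl7a under 8, of Rpsa under 6, of Rps29 under 5 and of Rps14 under 4. Single libraries moved the counts as well: 2 members were called higher when Ctrl+FGF2 3, Y/T dKD+FGF2 1 or Y/T dKD+FGF2 2 was left out, 3 when Y/T dKD+FGF2 3 was and 12 when Ctrl+vehicle 1 was. The number called lower was 2 without Ctrl+FGF2 2, and 1 without Ctrl+FGF2 3, Y/T dKD+FGF2 1 or Y/T dKD+FGF2 3.

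The knockdown effect was called different between the days in 11 members higher (14.7%) and 8 lower (10.7%) at d5 than at d2.5, shares near the 11.6% and 9.35% of all genes, so nothing particular to the members is read from these counts. The smallest adjusted p belonged to Rpl39 (difference -0.38 ± 0.05, adjusted p = 3.04e-06), Rpl8 (0.29 ± 0.05, adjusted p = 3.64e-05) and Rpl13 (0.29 ± 0.05, adjusted p = 1.01e-04). The count of 11 was 7 when Ctrl+FGF2 2 or Y/T dKD+FGF2 1 of d2.5, or Y/T dKD+FGF2 2 of d5, was left out. Rpl39 was at 236, 248 and 234 CPM in Ctrl+FGF2 and 227, 229 and 222 CPM in Y/T dKD+FGF2 at d5, where the groups did not overlap but the test was not passed (-0.08 ± 0.04, adjusted p = 0.111). Rpl13, lower with the knockdown at d2.5, was at 367, 342 and 358 CPM and 369.7, 380.4 and 361 CPM at d5 (0.06 ± 0.04, adjusted p = 0.274).

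**Figure D5:**
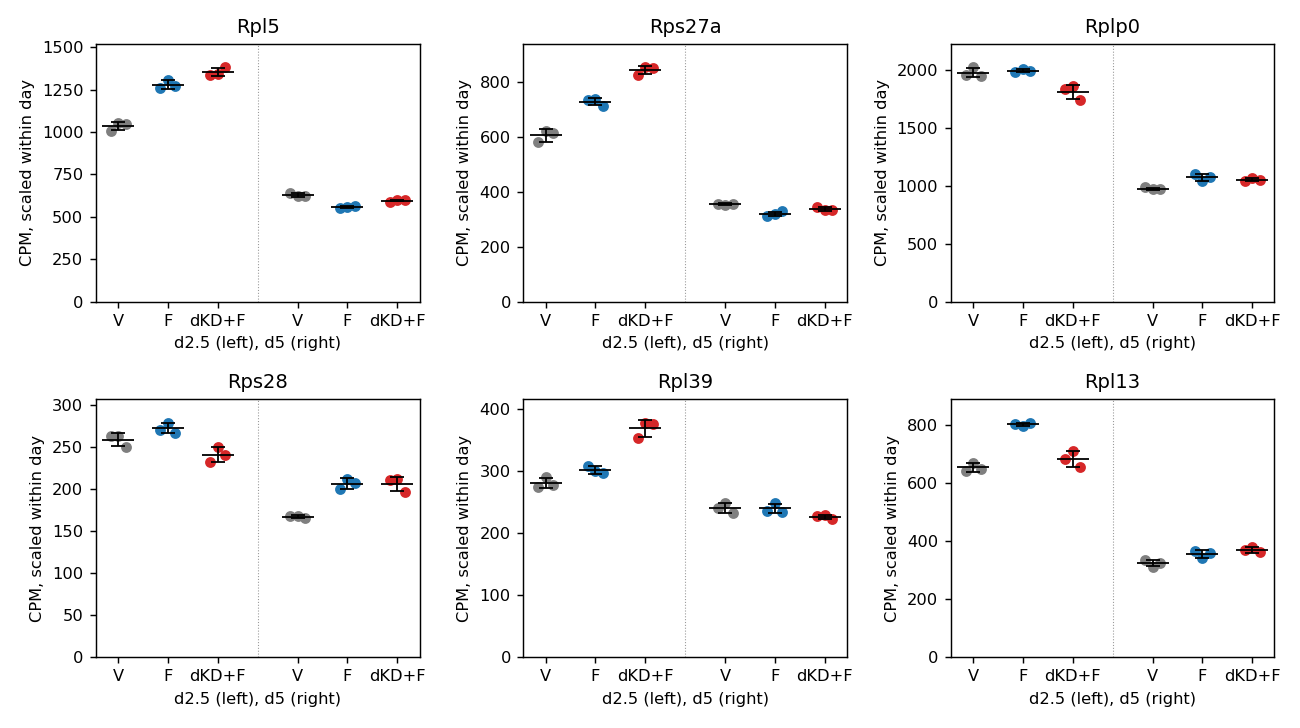
CPM, scaled within each day, of 6 ribosomal protein genes in every library (points), with the mean and SD of 3 replicates (black), for Ctrl+vehicle (V), Ctrl+FGF2 (F) and Y/T dKD+FGF2 (dKD+F) at d2.5 (left of the dotted line) and d5 (right), which are not on one scale. Rpl5 is higher with FGF2 at d2.5 and lower at d5 (not called with scaling by total gene counts or with the GC trend taken out), Rps28 is higher at d5, Rpl39 is higher with the knockdown at d2.5, and Rpl13 is lower with it at d2.5.

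Set against Ctrl+vehicle, Y/T dKD+FGF2 had 58 members called higher and 4 lower at d2.5, against 34.1% and 35.7% of all genes, and the median of their log2 fold changes was 0.20. At d5 it had 21 higher and 5 lower, with 20.7% and 21.1% of all genes, and a median of 0.01. With scaling by total gene counts 36 were higher and 1 lower at d5, while of all genes called 65.7% were higher in place of 49.4%. This comparison shares its controls and its knockdown libraries with the 2 others, so it is no separate evidence. The 4 called lower at d2.5 were Rplp0 (-0.13 ± 0.03, adjusted p = 2.54e-04), Rplp1 (-0.16 ± 0.04, adjusted p = 7.25e-04), Rps28 (-0.11 ± 0.04, adjusted p = 0.00973) and Rps29 (-0.08 ± 0.03, adjusted p = 0.0499). Their number was 2 when Y/T dKD+FGF2 replicate 1 was left out. It was 2 with scaling by total gene counts and 0 with the GC trend taken out. The count of 5 called lower at d5 ran from 1 to 9 as single libraries were left out: it was 3 without Ctrl+vehicle replicate 1, 9 without Ctrl+vehicle replicate 2, and 1 without Ctrl+vehicle replicate 3, Ctrl+FGF2 replicate 3, Y/T dKD+FGF2 replicate 1 or Y/T dKD+FGF2 replicate 3.

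Rps3a1, Rack1 and Fau, ribosomal proteins that the symbol rule leaves out, were called higher with FGF2 at d2.5. Rack1, a scaffold on the small subunit, had a log2 fold change of 0.19 ± 0.03, adjusted p = 7.03e-07, Rps3a1 of 0.21 ± 0.03, adjusted p = 4.08e-06 and Fau, a fusion with a ubiquitin-like protein, of 0.15 ± 0.04, adjusted p = 0.00165. At d5 Fau and Rack1 were again called higher (0.22 ± 0.04, adjusted p = 3.88e-04 and 0.10 ± 0.03, adjusted p = 0.0179) and Rps3a1 lower (-0.10 ± 0.04, adjusted p = 0.0275), a call that Rps3a1 lost with scaling by total gene counts or by the upper quartile. Of the paralogs, 4 of 8 were tested, and Rps27l (0.47 ± 0.05, adjusted p = 2.02e-09), Rpl22l1 (0.36 ± 0.05, adjusted p = 7.36e-08) and Rpl7l1 (0.26 ± 0.05, adjusted p = 8.92e-06) were called higher with FGF2 at d2.5. Of 288 genes named as ribosomal protein pseudogenes, 121 were tested at d2.5, of which 34 were called higher (28.1%, against 33.5% of all genes) and 0 lower (median 0.20). Since reads of a parent gene can be assigned to its pseudogene, these are uncertain.

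Genes for building ribosomes had larger fold changes with FGF2 at d2.5 than the members, with a median of 0.94 on the log2 scale against 0.20. Of 28 ribosome biogenesis genes, 27 were called higher with FGF2 at d2.5 and 0 lower. Dkc1 (1.29 ± 0.05, adjusted p = 5.88e-21), Nop56 (1.26 ± 0.04, adjusted p = 1.70e-22) and Nop58 (1.14 ± 0.04, adjusted p = 2.48e-22), which serve in the small nucleolar particles that modify ribosomal RNA, rose most. At d5, 18 were called lower and 0 higher (median -0.28), and 16 lower and 3 higher with scaling by total gene counts (median -0.18), with Gnl3 (-0.99 ± 0.06, adjusted p = 9.43e-10), Nop56 (-0.88 ± 0.07, adjusted p = 1.37e-08) and Nop58 (-0.58 ± 0.06, adjusted p = 1.01e-06) falling most. The difference between days had 26 of 28 lower, with a median of -1.28, where 29.1% of all genes were called lower. With the knockdown under FGF2 at d2.5, 3 were called higher and 3 lower (10.7% each), near the shares of all genes (10.8% and 13.6%). At d5, 14 of the 28 were called higher and 1 lower, where 15.6% and 16.1% of all genes were. Among them, Gar1 (0.49 ± 0.09, adjusted p = 3.40e-04), Fbl (0.46 ± 0.10, adjusted p = 0.00138) and Gnl3 (0.45 ± 0.06, adjusted p = 3.40e-05) rose most at d5.

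Other TOP mRNAs, which code for elongation factors, initiation factors and the like, were called higher with FGF2 at d2.5 in 15 of 19 and lower in 1, Eif3f (median 0.25). Impdh2 (0.76 ± 0.04, adjusted p = 2.78e-17), Nap1l1 (0.71 ± 0.03, adjusted p = 4.36e-19) and Npm1 (0.68 ± 0.03, adjusted p = 4.13e-19) rose most. At d5, 4 were called higher and 8 lower (median -0.03), a median that turned to 0.08 with scaling by total gene counts, where 8 were higher and 3 lower. Those that fell most were Eif3a (-0.38 ± 0.04, adjusted p = 7.57e-07) and Pabpc1 (-0.34 ± 0.03, adjusted p = 1.36e-07). With the knockdown, 6 were higher and 2 lower at d2.5, where Eef2, the elongation factor that moves the ribosome along, fell (-0.23 ± 0.03, adjusted p = 9.81e-08), and 7 were higher and 0 lower at d5. Among 15 regulators of translation, 9 were called higher and 6 lower with FGF2 at d2.5. Myc was at 64.4, 64.2 and 59.6 CPM in Ctrl+vehicle and 156, 165 and 159 CPM in Ctrl+FGF2 at d2.5 (1.35 ± 0.04, adjusted p = 1.06e-22). At d5 it was at 39.4, 32.3 and 29.5 CPM and 21.6, 15.9 and 20.4 CPM (-0.81 ± 0.11, adjusted p = 7.64e-06). Eif4ebp1, a repressor of cap-dependent translation, likewise rose at d2.5 (0.76 ± 0.04, adjusted p = 1.45e-16) and fell at d5 (-0.45 ± 0.08, adjusted p = 1.12e-04), whereas Mtor fell at d2.5 (-0.34 ± 0.05, adjusted p = 2.86e-06). With the knockdown under FGF2, Myc fell at d2.5 (-0.28 ± 0.04, adjusted p = 3.08e-06) and rose at d5 (0.58 ± 0.11, adjusted p = 5.30e-04). Of 77 mitochondrial ribosomal protein genes tested, 48 were called higher and 3 lower with FGF2 at d2.5 (median 0.20), and 10 higher and 4 lower at d5 (median 0.05). With the knockdown, 1 was higher and 6 lower at d2.5, and 0 higher and 3 lower at d5. Beside these lists, the shares of all genes called higher and lower were 33.5% and 34.1% for FGF2 at d2.5, 23.5% and 23.7% for FGF2 at d5, 10.8% and 13.6% for the knockdown at d2.5, and 15.6% and 16.1% for the knockdown at d5.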

How the data were processed

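Total polyA RNA was sequenced from 18 libraries, made with a kit for mRNA (SMARTER). The authors deposited counts per gene for each library in the layout of the STAR aligner's gene counts, unstranded and for each strand. The submitters' processing notes name FastQC, STAR, Picard, featureCounts and mm10, without versions or roles, and the annotation release is not given in the sources used here. The reverse-strand counts were used, which hold 96.0% to 96.6% of the stranded counts. Reads assigned to no gene (27.0% to 34.4%), to several genes (1.21% to 1.54%) or mapped to several places stayed out of library sizes and tests.

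Each day's 9 libraries were fitted with edgeR 4.0.16 (R 4.3.3) by its quasi-likelihood test with TMM factors, its filter on low counts and Benjamini-Hochberg adjustment at 0.05. Standard errors were taken as the log2 fold change over the root of the F statistic. Differences between days came from 1 fit of 18 libraries. DESeq2 1.42.0 was an alternative, beside other scalings, filters, unstranded counts, a replicate block, both days in 1 fit and leaving out each library. The 2 further alternatives, GC content offsets (lowess span 0.3) and leaving out Rps10, Rpl13a and Rpl24, were chosen after seeing the data. GC content and lengths were those of the principal transcript of GENCODE M21, whose build (GRCm38) is that of mm10. The fit was tested on simulated data whose changes were larger than most of those seen in the members, so that test does not cover changes of their size. Tables were handled with Python 3.11.15 and pandas 2.3.3. Labels and methods used here do not state separate cultures for the replicates, so p-values measure only the spread between these samples, which may be technical.

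The members and the lists were chosen with earlier results of these data known. Named in each comparison were the 4 members with the largest rise and the 4 with the largest fall among called members whose groups did not overlap, the 3 with the smallest adjusted p for each difference between days, members of the stalk, Rpsa and Rps27a by role, the 5 most abundant per length and those with under 10 counts. In other lists, at most 3 called genes a direction were named by size. Other genes were named after their values were seen. Some genes that these rules would name are not reported here.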

Additional observations from a re-analysis of the deposited data

Results flagged for a closer look

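The effect of FGF2 on the ribosomal protein genes differed between d5 and d2.5 by the test of the difference itself (edgeR's quasi-likelihood test), with 4 members called higher and 55 lower at d5, where 31.8% and 29.1% of all genes were. For Rpl5 the difference was -0.50 on the log2 scale, for Rps27a -0.44 and for Rpl35a -0.43. The effect of the knockdown under FGF2 differed in the same test in 11 members called higher (14.7%) and 8 called lower (10.7%) at d5, near the shares over all genes of 11.6% and 9.35%. For Rpl39 the difference was -0.38, for Rpl8 0.29 and for Rpl13 0.29. Day and the batch named in the labels cannot be told apart in any of these.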

How the results depend on the processing

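Of the values over all members, 505 kept within the limits set for a change under the alternatives and 93 moved. Among those that moved, the median for FGF2 at d5 turned from -0.02 to 0.0056 with upper-quartile scaling. It was 0.084 with scaling by total gene counts and 0.0084 without Ctrl+vehicle replicate 1 of d5. For single named members 732 values kept their call and 45 lost it. The rise with FGF2 at d2.5 kept 63 to 70 members called higher and 0 to 1 lower as each library was left out (median 0.17 to 0.22). The corresponding ranges were 9 to 24 and 9 to 17 for the knockdown at d2.5 (0.01 to 0.04), 13 to 20 and 8 to 15 for FGF2 at d5 (-0.040 to 0.0084), 2 to 12 and 1 to 4 for the knockdown at d5 (0.02 to 0.05). The knockdown with FGF2 against vehicle ranged over 56 to 62 and 2 to 4 at d2.5 (0.18 to 0.22), and 17 to 25 and 1 to 9 at d5 (-0.00 to 0.03). The FGF2 difference between days ranged over 2 to 5 and 53 to 56 (-0.26 to -0.22), and the knockdown difference over 7 to 12 and 6 to 11 (0.013 to 0.044).

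With upper-quartile scaling the median was 0.17 for FGF2 at d2.5, 0.17 for the knockdown with FGF2 against vehicle at d2.5, 0.0056 for FGF2 at d5 with 8 called lower, and -0.15 for the FGF2 difference with 10 called higher, while 13 were lower for the knockdown difference and 1 for the knockdown with FGF2 against vehicle at d5. With scaling by total gene counts the values were 0 lower (median 0.24) for FGF2 at d2.5, 2 lower (0.23) for the knockdown with FGF2 against vehicle at d2.5, 37 higher and 0 lower (0.084) for FGF2 at d5, 2 higher (0.0080) for the knockdown at d5, 36 higher and 1 lower (0.089) for the knockdown with FGF2 against vehicle at d5, and 10 higher (-0.15) for the FGF2 difference. With GC content offsets they were 5 lower for the knockdown at d2.5, 0 lower (0.24) and 12 higher and 13 lower for the knockdown with FGF2 against vehicle at d2.5 and d5, 10 higher and 22 lower for FGF2 at d5, 0 higher for the FGF2 difference and a median of 0.014 for the knockdown difference. At an adjusted p of 0.01 they were 10 higher for the knockdown at d2.5, 7 lower for FGF2 at d5, 2 higher and 1 lower for the knockdown at d5, 1 lower for the knockdown with FGF2 against vehicle at d5, 2 higher for the FGF2 difference, and 7 higher and 3 lower for the knockdown difference. DESeq2 gave 2 lower for the knockdown at d5 and 2 higher (-0.27) for the FGF2 difference, which RLE factors gave as well (2 higher, -0.27), as did TMM without the members (2 higher) and unstranded counts (2 higher). For the knockdown with FGF2 against vehicle at d5 the number lower was 11 with RLE factors, 13 with both days in 1 fit and 3 with no filter. For the knockdown at d5 13 were higher with both days in 1 fit, and for the knockdown difference 7 were higher with no filter. The causes were not tested.

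Same-numbered replicates did not deviate together in every pair (correlations of -0.14 to 0.06 at d2.5 and -0.14 to 0.33 at d5), so the numbers were not taken to pair the samples. In Ctrl+vehicle and Ctrl+FGF2 at d5 replicates 1 (0.28) and 2 (0.33) did and replicates 3 (0.02) did not. With the replicate block, 8 members in place of 5 were called lower for the knockdown with FGF2 against vehicle at d5, and the other counts stayed within the limits (66 higher for FGF2 at d2.5, 15 and 15 for the knockdown at d2.5, 20 and 14 for FGF2 at d5). Rpl24 and Rps10, at 1 to 40 counts in libraries of 10377151 to 14698525 gene counts, were too low for a change to be seen. Their transcripts overlap another gene of the same strand over 71.5% and 91.6% of their bases, and reads assigned to several genes were not counted. The part of this overlap in their low counts was not tested. Reads shared with pseudogenes are missing from the counts as well.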
